A study of Homo sapiens with 12 samples.

Results

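The cyclins and cyclin-dependent kinases (CDKs) described here are 10 genes of the cell cycle engine: the D cyclins CCND1, CCND2 and CCND3, the E cyclins CCNE1 and CCNE2, cyclin A2 (CCNA2), the B cyclins CCNB1 and CCNB2, and the kinases CDK1 and CDK2. They were chosen by symbol. Each was read from its brightest probe set annotated to that symbol alone, and all 10 were among the 10683 genes tested, of 19775 genes with such a probe set. Their signal was measured on Affymetrix arrays in HK-2, an immortalised cell line from the epithelium of the human proximal tubule. The 4 groups, of 3 biological replicates and 1 array each, were HK-2 cells exposed to CdCl for 12 h, HK-2 cells given the control vehicle for 12 h, CdCl cells at 48 h and control cells at 48 h. All groups shared the medium, with epidermal growth factor, insulin, transferrin and hydrocortisone, and were near confluence when treatment began. The sources used here do not give the dose of CdCl, and HK-2 is 1 line made by introducing papillomavirus oncogenes, whose products bind p53 and the retinoblastoma protein RB.

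A cyclin is the regulatory subunit that switches on its partner kinase. D cyclins act in G1, where with CDK4 or CDK6 they phosphorylate RB and so relieve its block on E2F transcription factors. E cyclins with CDK2 then start DNA replication, cyclin A2 with CDK2 and CDK1 carries cells through S phase and G2, and B cyclins with CDK1 drive entry into mitosis. D cyclin transcripts follow growth signals, whereas those of the other cyclins rise and fall with the cycle itself.

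With CdCl, 8 of these genes had lower signal at 12 h and 2, CCND1 and CCND3, had higher signal. Of all genes tested, 39.7% were lower and 16.7% higher at that time. At 48 h 7 of the 10 were lower, CCND1 alone was higher, and CCND3 and CCNE1 did not pass the test. By then 28.0% of all genes were lower and 26.5% higher. The 48 h fall of CCND2, 1 of the 7, depended on the probe set read and on the processing. All 10 were also lower in control cells at 48 h than in control cells at 12 h, beside 33.5% of all genes. In 9 of the 10 that fall exceeded the size of the CdCl change at 12 h. A lower signal in the RNA of a whole culture cannot tell fewer cycling cells from less RNA per cell.

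Replicate arrays of a group correlated at 0.9965 to 0.9982 over the probe sets that are not Affymetrix controls. Of the 17 proximal tubule and renal epithelial markers with a probe set, 7 passed the filter described below, among them PAX8, DPP4, CDH6 and the keratins KRT8, KRT18 and KRT19, while the transporter and receptor genes LRP2, CUBN, AQP1, SLC5A2, SLC34A1, SLC22A6 and SLC22A8 stayed under 4 on the log2 scale on every array. CDH16, a cadherin of kidney epithelium, passed too and averaged 6.71 in CdCl and 7.83 in control arrays at 12 h, and 5.13 in CdCl and 8.21 in control arrays at 48 h. CDH6 averaged 11.84 in CdCl and 12.40 in control arrays at 12 h, and 8.63 in CdCl and 10.87 in control arrays at 48 h, whereas DPP4 averaged 11.17 in CdCl and 10.54 in control arrays at 12 h and 11.68 in CdCl and 11.05 in control arrays at 48 h. The summed linear signal of these 17 markers was 14000 to 14800 in CdCl and 16500 to 17500 in control arrays at 12 h, and 12700 to 13800 in CdCl and 13900 to 14700 in control arrays at 48 h. None of the endothelial, leukocyte or podocyte markers passed. Of 5 markers of the distal nephron and collecting duct with a probe set, AQP2 and AQP3 passed, near the filter at means of 4.36 and 4.21 over the 12 arrays, and the sum of the 5 was 63.9 to 73.0 in CdCl and 64.5 to 77.9 in control arrays at 12 h, and 48.5 to 54.9 in CdCl and 59.8 to 73.5 in control arrays at 48 h. Of 7 fibroblast markers COL1A1, DCN and LUM passed, and the summed linear signal of the 7 was 3850 to 4590 in CdCl and 4140 to 4540 in control arrays at 12 h, and 2290 to 2790 in CdCl and 2010 to 2240 in control arrays at 48 h. Poly-A spike-ins, RNAs added before labelling, averaged 7.00 ± 0.04 in CdCl and 6.53 ± 0.13 in control arrays at 12 h (SD, n = 3), and 6.31 ± 0.49 in CdCl and 6.14 ± 0.10 in control arrays at 48 h. The actin probe set at the 3' end exceeded that at the 5' end by 1.69 to 1.80 in CdCl and 1.71 to 2.11 in control arrays at 12 h, and 1.40 to 1.82 in CdCl and 1.36 to 1.57 in control arrays at 48 h. The part of these measures in the results below was not tested.

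Signals are log2 values per probe set, so a difference of 1 is a doubling. A gene was tested if it exceeded 4 on at least 3 of the 12 arrays. Changes are log2 differences ± the standard error (SE) of a limma fit, and a gene is said to have risen or fallen if its p adjusted over all 10683 genes was under 0.05. With CdCl at 12 h, 16.7% of all genes tested rose and 39.7% fell, and their median change was -0.16. After each array was centred on the median of the tested genes, a setting added after the data were seen, 2607 rose and 2830 fell at 12 h in place of 1783 and 4246. Against these shares, 2 of the 10 cyclin and kinase genes rose and 8 fell under both scalings. At 48 h, 26.5% of all genes rose and 28.0% fell (median change -0.015), against 1 and 7 of the 10. CCND2, 1 of these 7, did not pass at 48 h after that centring (limma, adjusted p = 0.055). All 3 CdCl arrays lay above all 3 controls for 2 of the 10 and below for 8 at 12 h (19.8% and 46.6% of all genes), and above for 1 and below for 7 at 48 h (29.1% and 30.9%). For the difference between the CdCl changes at 48 h and 12 h, 27.0% of all genes passed upward and 13.0% downward (2888 and 1394), against 2 and 0 of the 10. After the same centring 1907 passed upward and 1989 downward, against 2 and 2 of the 10. The median change of the 10 was -0.86 at 12 h and -0.73 at 48 h. Replicates are biological per the labels, and 3 arrays against 3 allow an exact permutation p no lower than 0.1, so these calls rest on the spread that limma pools over genes.

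**Figure D1:**
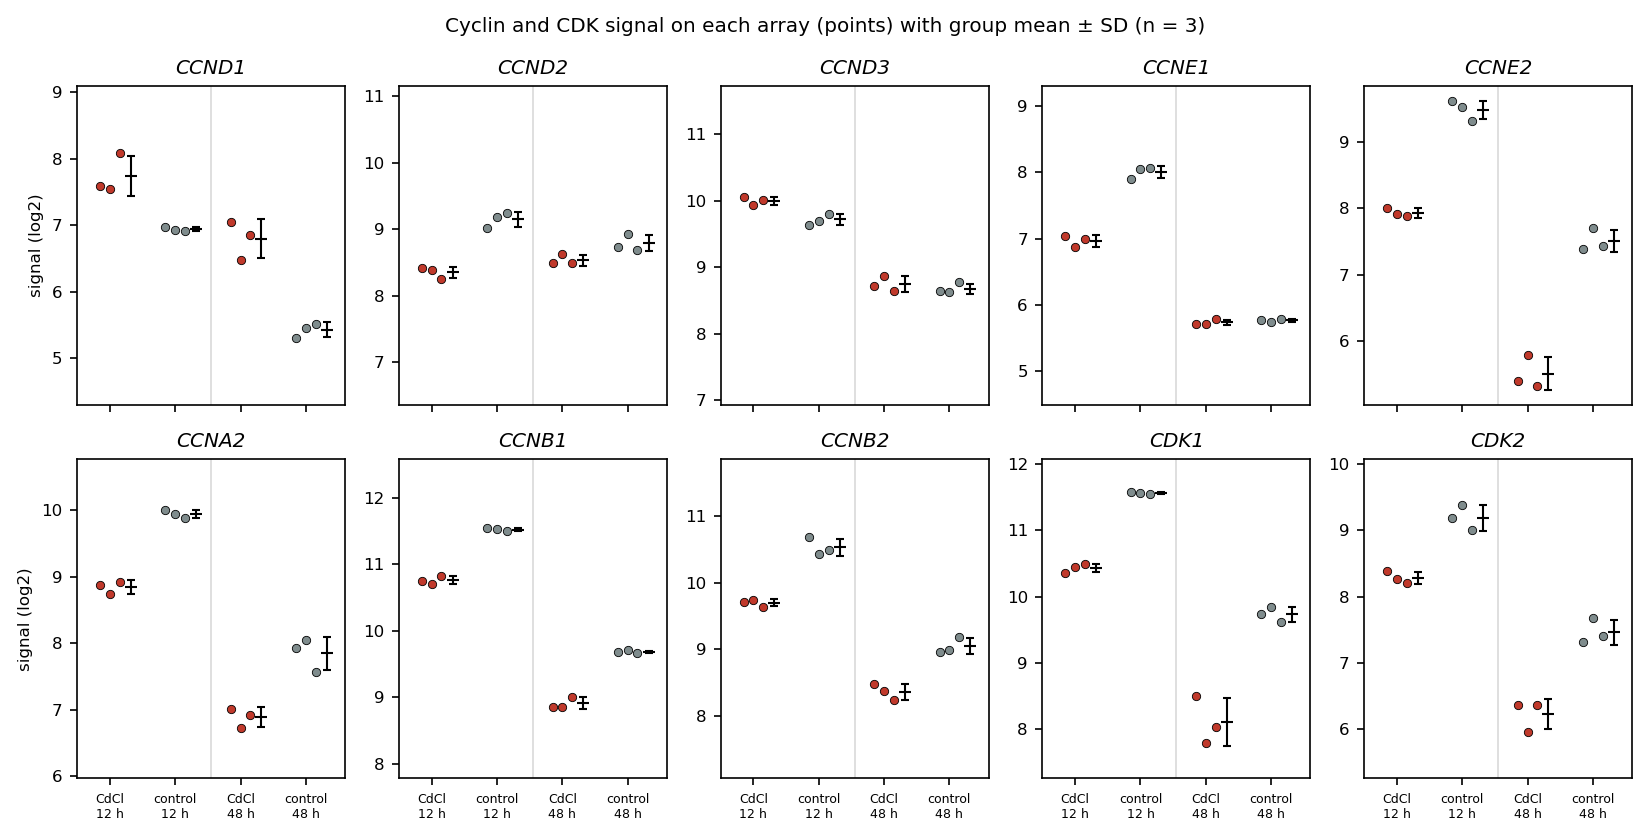
Signal of the 10 genes on each array. Each panel is a gene, points are arrays (red CdCl, grey control), bars are group means ± SD (n = 3), and the vertical axis is log2 signal with the same span in every panel. CCND1 is higher in CdCl arrays at both times, CCNE1 overlaps at 48 h, and CCNE2, CCNA2, both B cyclins, CDK1 and CDK2 are lower in CdCl arrays at both times.

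The D cyclins, which link growth signals to RB, changed in different directions. CCND1 encodes cyclin D1. Its signal was 7.59, 7.54 and 8.08 in CdCl cells at 12 h, against 6.98, 6.93 and 6.91 in control cells. At 48 h it was 7.05, 6.48 and 6.86 in CdCl cells, against 5.31, 5.46 and 5.52 in control cells. Every CdCl array lay above every control array of its time. CCND1 rose 1.74-fold at 12 h (0.80 ± 0.16, adjusted p = 0.0011) and 2.58-fold at 48 h (1.37 ± 0.16, adjusted p = 1.9e-05). The larger difference at 48 h did not pass the test of the difference between times (0.57 ± 0.22, adjusted p = 0.059). That test passed without CdCl 12 h replicate 3 (adjusted p = 0.011) or CdCl 48 h replicate 2 (adjusted p = 0.013), with a trended robust prior (adjusted p = 0.048) and with a filter at 6 (adjusted p = 0.046). A second CCND1 probe set rose by 0.79 ± 0.22 at 12 h and by 1.08 ± 0.22 at 48 h, and its difference between times was 0.29 ± 0.31 (adjusted p = 0.51). CCND1 signal in CdCl cells at 48 h overlapped that in control cells at 12 h.

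CCND2 encodes cyclin D2. On its brightest probe set it gave 8.41, 8.39 and 8.25 in CdCl cells at 12 h, against 9.02, 9.18 and 9.25 in control cells. At 48 h the values were 8.49, 8.62 and 8.49 in CdCl cells, against 8.74, 8.93 and 8.69 in control cells. The groups did not overlap at either time, but the gap was narrow at 48 h. CCND2 fell by 0.80 ± 0.09 at 12 h (adjusted p = 1.5e-05) and by 0.25 ± 0.09 at 48 h (adjusted p = 0.027), and the difference between times was 0.55 ± 0.12 (adjusted p = 0.0045). The 48 h call ended without CdCl 48 h replicate 1 (adjusted p = 0.077) or 3 (0.076), without control 48 h replicate 2 (adjusted p = 0.11), and after centring on the tested genes (adjusted p = 0.055).

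The probe sets of CCND2 disagreed. A second one averaged 5.81 ± 0.07 in CdCl and 6.02 ± 0.07 in control cells at 12 h, a change of -0.21 ± 0.08 (adjusted p = 0.038). At 48 h it averaged 6.64 ± 0.11 in CdCl and 6.07 ± 0.01 in control cells, a rise of 0.57 ± 0.08 (adjusted p = 8.3e-05) where the brightest one fell. The third of them, near the filter at 3.87 over the 12 arrays, gave 0.34 ± 0.13 at 12 h (adjusted p = 0.050) and -0.05 ± 0.13 at 48 h (adjusted p = 0.78), but its control arrays at 12 h and its CdCl arrays at 48 h were all under 4. With all probe sets of the gene averaged, CCND2 gave -0.21 at 12 h (adjusted p = 0.059) and 0.14 at 48 h (adjusted p = 0.21). This average takes in the third probe set and another that stayed under 4 on every array (mean 2.36). The direction of CCND2 at 48 h therefore depends on the probe set read, and which transcripts each probe set detects was not analysed here.

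CCND3, which encodes cyclin D3, gave 10.06, 9.94 and 10.01 in CdCl cells at 12 h, against 9.64, 9.70 and 9.80 in control cells. All 3 CdCl arrays were higher, and the rise was 1.22-fold (0.29 ± 0.08, adjusted p = 0.009). By 48 h CCND3 gave 8.71, 8.87 and 8.64 in CdCl cells, against 8.64, 8.62 and 8.77 in control cells. These groups overlapped, with a difference of 0.06 (95% confidence interval -0.11 to 0.24, adjusted p = 0.54). The difference between times was -0.22 ± 0.11 (adjusted p = 0.13, and adjusted p = 0.049 without CdCl 48 h replicate 2).

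Within single arrays, the log2 ratio of CCND1 to CCND2 was 1.60 higher in CdCl than in control cells at 12 h and 1.62 higher at 48 h, with no overlap (exact permutation p = 0.1, two-sided, the smallest possible, as for each ratio here whose groups do not overlap). The ratio of CCND1 to CCND3 was higher by 0.51 at 12 h and by 1.30 at 48 h, again without overlap. These 2 ratios, on the brightest probe sets, were higher with CdCl at both times. With no p under 0.1 possible, the test cannot decide whether CCND1 changed unequally to the other D cyclins. A shift common to a whole array cancels in a ratio, but an effect that depends on signal level does not. For CCND2 to CCND3 the ratio was lower by 1.08 at 12 h and by 0.32 at 48 h without overlap, but with all probe sets of each gene averaged the values were -0.35 at 12 h and 0.10 at 48 h. Averaging also gave 1.00 and 1.08 for CCND1 to CCND2. For CCND2 and for CCND3 the average takes in a probe set that stayed under 4 on every array.

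**Figure D2:**
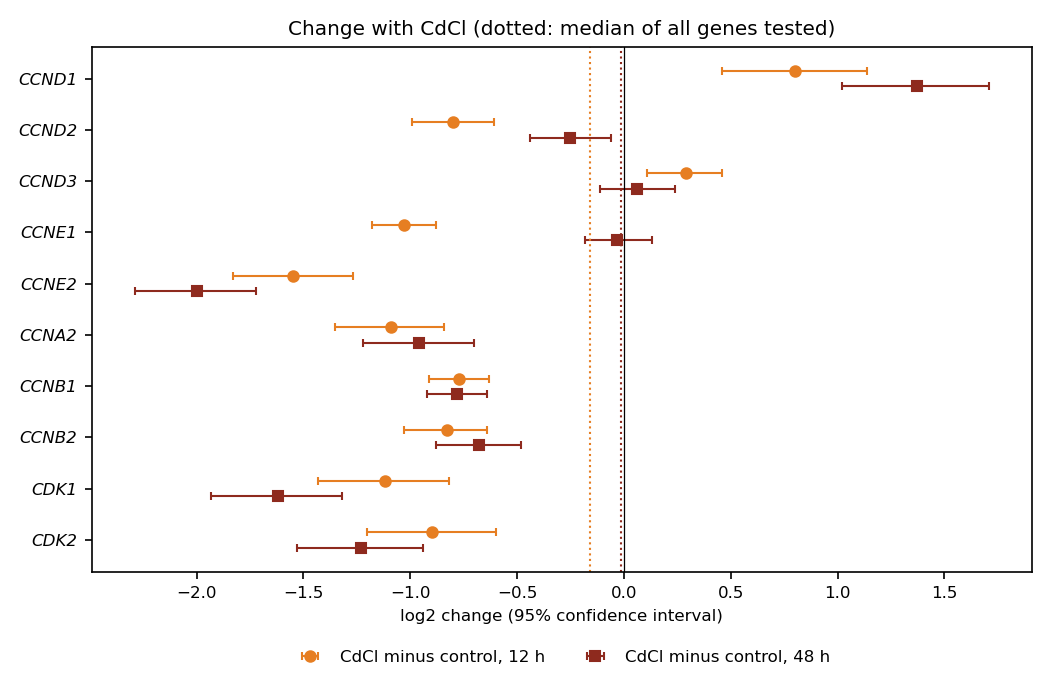
Log2 change with CdCl at 12 h (circles) and 48 h (squares) for each gene, with 95% confidence intervals of the limma fit. Dotted lines mark the median change of all 10683 genes tested, -0.16 at 12 h and -0.015 at 48 h. CCND1 lies right of zero at both times, and CCNE1 moves to zero at 48 h while CCNE2 lies at -2.0.

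The E cyclins, partners of CDK2 at the G1/S boundary, both fell at 12 h and parted at 48 h. CCNE1 gave 7.04, 6.87 and 6.99 in CdCl cells at 12 h, against 7.89, 8.04 and 8.06 in control cells. The 48 h values were 5.72, 5.72 and 5.79 in CdCl cells, against 5.78, 5.74 and 5.79 in control cells. The 12 h groups were apart and the 48 h groups overlapped. CCNE1 was 2.04-fold lower at 12 h (-1.03 ± 0.07, adjusted p = 3.5e-07). At 48 h the difference was -0.03 (95% confidence interval -0.18 to 0.13, adjusted p = 0.78). The difference between times passed the test (1.01 ± 0.10, adjusted p = 2.8e-05), the largest among the 10 genes. Whether the 48 h signal is the lowest that this probe set can give was not tested. The second CCNE1 probe set stayed under 4 on every array.

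CCNE2 had the largest fall with CdCl of the 10 at both times. Its signal was 8.01, 7.91 and 7.88 in CdCl cells at 12 h, against 9.61, 9.52 and 9.32 in control cells. Its 48 h signal was 5.40, 5.79 and 5.33 in CdCl cells, against 7.38, 7.71 and 7.44 in control cells. All CdCl arrays lay below all controls of their time. CCNE2 was 2.93-fold lower at 12 h (-1.55 ± 0.13, adjusted p = 2.0e-06) and 4.01-fold lower at 48 h (-2.0 ± 0.13, adjusted p = 1.8e-07). Its second probe set changed by -0.99 ± 0.33 at 12 h and by -1.85 ± 0.33 at 48 h. The CdCl arrays at 48 h were all under 4 on it (mean 3.26), and with them set to 4 it was at least 2.16-fold lower. The difference between times missed the threshold (-0.45 ± 0.18, adjusted p = 0.067), and passed it with replicate number as a block (adjusted p = 0.046), after centring on the tested genes (-0.58, adjusted p = 0.032) and without CdCl 48 h replicate 2 (-0.60, adjusted p = 0.010).

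The within-array ratio of CCNE2 to CCNE1 was lower in CdCl than in control cells by 0.52 at 12 h and by 1.98 at 48 h, without overlap. At 48 h this ratio was -0.24 ± 0.28 in CdCl cells and 1.74 ± 0.20 in control cells (SD, n = 3). The exact permutation p was 0.1 (two-sided) at both times, the smallest possible, so this test cannot decide whether the E cyclins changed unequally. The 48 h ratio also rests on the CCNE1 signal, and whether that is the lowest its probe set can give was not tested.

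CDK2, the kinase of cyclins E and A, gave 8.38, 8.27 and 8.20 in CdCl cells at 12 h, against 9.18, 9.37 and 9.00 in control cells. In the 48 h groups it gave 6.37, 5.96 and 6.37 in CdCl cells, against 7.31, 7.67 and 7.41 in control cells. The groups were apart at both times. CDK2 was 1.87-fold lower at 12 h (-0.90 ± 0.13, adjusted p = 0.00016) and 2.35-fold lower at 48 h (-1.23 ± 0.13, adjusted p = 1.4e-05). Its second probe set gave -0.52 ± 0.32 at 12 h (adjusted p = 0.20) and fell by 1.12 ± 0.32 at 48 h (adjusted p = 0.013).

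CCNA2, CCNB1, CCNB2 and CDK1 serve S phase, G2 and mitosis. Genes of this phase are known to be controlled through CCAAT boxes, bound by the factor NF-Y, and through a cell cycle homology region (CHR), bound by the DREAM and MYB-MuvB complexes. The promoters shown were picked by gene name, and CCND1, also picked, had no promoter sequence available here. These 4 genes moved together on the arrays, as CDK2 and CCNE2 did with them. Whether the letters marked below bear on that was not tested. The sequences, from RefSeq on GRCh38.p14, run from 250 bases before the annotated gene start to 50 bases from it, 5′ to 3′ on the gene's strand. Capitals mark matches on either strand to CCAAT and to the CHR letters TTTGAA or TTCGAA. The regions are chr4:121823834-121824133 (minus strand) for CCNA2, chr5:69166900-69167199 (plus) for CCNB1, chr15:59104896-59105195 (plus) for CCNB2 and chr10:60778081-60778380 (plus) for CDK1.
CCNA2: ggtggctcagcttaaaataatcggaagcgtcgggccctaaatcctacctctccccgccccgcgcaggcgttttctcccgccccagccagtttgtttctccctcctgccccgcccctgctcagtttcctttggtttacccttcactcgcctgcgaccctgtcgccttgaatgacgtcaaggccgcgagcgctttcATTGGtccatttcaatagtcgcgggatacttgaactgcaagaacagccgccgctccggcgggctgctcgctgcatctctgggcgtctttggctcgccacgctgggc
CCNB1: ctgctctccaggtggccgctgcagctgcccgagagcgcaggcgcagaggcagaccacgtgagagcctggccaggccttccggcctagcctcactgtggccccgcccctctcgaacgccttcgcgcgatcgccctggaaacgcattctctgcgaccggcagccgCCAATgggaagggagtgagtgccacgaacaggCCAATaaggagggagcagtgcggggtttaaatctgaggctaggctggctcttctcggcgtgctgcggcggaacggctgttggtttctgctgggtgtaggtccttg
CCNB2: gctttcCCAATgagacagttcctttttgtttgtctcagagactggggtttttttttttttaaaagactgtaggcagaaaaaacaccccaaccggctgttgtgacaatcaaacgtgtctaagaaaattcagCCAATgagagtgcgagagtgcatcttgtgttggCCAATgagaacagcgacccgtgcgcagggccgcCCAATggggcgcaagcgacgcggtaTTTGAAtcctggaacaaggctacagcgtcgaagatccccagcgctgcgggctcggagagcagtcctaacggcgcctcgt
CDK1: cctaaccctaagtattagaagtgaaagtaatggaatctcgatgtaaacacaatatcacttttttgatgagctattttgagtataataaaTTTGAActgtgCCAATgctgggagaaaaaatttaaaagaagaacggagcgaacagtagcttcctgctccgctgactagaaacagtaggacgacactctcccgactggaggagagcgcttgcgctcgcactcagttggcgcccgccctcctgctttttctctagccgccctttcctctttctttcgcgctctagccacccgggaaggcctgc
CCNB2 held 4 CCAAT matches and 1 CHR match, which began 29 bases upstream of the start. CCNB1 held 2 CCAAT matches, at 87 and 55 bases upstream, and no match to the CHR letters searched. CCNA2 held 1 CCAAT match on the opposite strand, at 56 bases upstream. CDK1 held 1 CCAAT and 1 CHR match, whose first bases lay 150 and 161 bases upstream. Of 27305 promoters of this length in the same table, 35.7% held a CCAAT match, 16.6% a CHR match and 6.58% both. CCND3 and CCNE1, the other members with a promoter in that table, held neither. A further search for the E2F letters TTTCCCGC, TTTGGCGC, TTTCGCGC and TTTGCCGC found 1 match among the 6 genes, in CDK1, against 3.33% of all promoters. None of these matches overlapped another. A match describes letters and not binding, and a CHR or E2F site of other letters would be missed. The promoters of CCND1, CCND2, CCNE2 and CDK2 were not analysed here.

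CCNA2, the cyclin of S phase and G2, gave 8.88, 8.74 and 8.93 in CdCl cells at 12 h, against 10.01, 9.94 and 9.89 in control cells. The values at 48 h were 7.02, 6.73 and 6.92 in CdCl cells, against 7.93, 8.05 and 7.57 in control cells. CdCl arrays were the lower ones at both times, without overlap. CCNA2 was 2.14-fold lower at 12 h (-1.09 ± 0.12, adjusted p = 1.5e-05) and 1.95-fold lower at 48 h (-0.96 ± 0.12, adjusted p = 3.4e-05), and its second probe set fell by 1.06 ± 0.14 and 1.14 ± 0.14 at these times.

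CCNB1, the main mitotic cyclin, gave 10.75, 10.70 and 10.82 in CdCl cells at 12 h, against 11.54, 11.53 and 11.50 in control cells. The 48 h arrays gave 8.85, 8.86 and 9.01 in CdCl cells, against 9.68, 9.71 and 9.67 in control cells. The spread within groups was at most 0.09 (SD), and the groups were apart. CCNB1 was 1.70-fold lower at 12 h (-0.77 ± 0.06, adjusted p = 2.1e-06) and 1.71-fold lower at 48 h (-0.78 ± 0.06, adjusted p = 1.3e-06). The difference between times was -0.01 (95% confidence interval -0.21 to 0.19).

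CCNB2, a second mitotic cyclin whose protein is found at the Golgi, gave 9.71, 9.74 and 9.64 in CdCl cells at 12 h, against 10.68, 10.43 and 10.49 in control cells. At 48 h it gave 8.47, 8.37 and 8.23 in CdCl cells, against 8.95, 8.99 and 9.18 in control cells. CCNB2 was thus lower on every CdCl array than on every control array of the same time. It fell by 0.83 ± 0.09 at 12 h (adjusted p = 1.5e-05) and by 0.68 ± 0.09 at 48 h (adjusted p = 6.2e-05). The within-array ratio of CCNB1 to CCNB2 differed between CdCl and control cells by 0.07 at 12 h (exact permutation p = 0.5, two-sided) and by -0.09 at 48 h (exact permutation p = 0.7, two-sided), with overlapping groups. With all probe sets of each gene averaged, including those of CCNB2 under the filter, the ratio differed by -0.45 and -0.56.

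CDK1, the mitotic kinase, gave 10.36, 10.45 and 10.49 in CdCl cells at 12 h, against 11.57, 11.56 and 11.54 in control cells. The CDK1 values at 48 h were 8.50, 7.80 and 8.03 in CdCl cells, against 9.74, 9.84 and 9.62 in control cells. The CdCl arrays at 48 h spread most (SD 0.36), and still lay below all controls. CDK1 was 2.18-fold lower at 12 h (-1.12 ± 0.14, adjusted p = 4.2e-05) and 3.08-fold lower at 48 h (-1.62 ± 0.14, adjusted p = 1.9e-06). Its 3 other probe sets changed by -0.97 to -0.87 at 12 h. At 48 h those of them above the filter changed by -1.23 and -1.25, and the dimmest was at least 1.95-fold lower, with its CdCl arrays all under 4 and set to 4. The difference between times, -0.50 ± 0.20, missed the threshold (adjusted p = 0.065). It passed with the trended robust prior (adjusted p = 0.033), with the probe sets averaged (-0.34, adjusted p = 0.046), after centring on the tested genes (-0.62, adjusted p = 0.018) and without CdCl 48 h replicate 1 (-0.69, adjusted p = 0.0019). It did not pass on any of the 3 other probe sets, with -0.26 (adjusted p = 0.12), -0.31 (0.071) and, on the dimmest, -0.30 (0.50). The ratio of CDK1 to CDK2 was lower in CdCl than in control cells by 0.22 at 12 h (overlapping groups, exact permutation p = 0.2, two-sided) and by 0.39 at 48 h (no overlap).

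**Figure D3:**
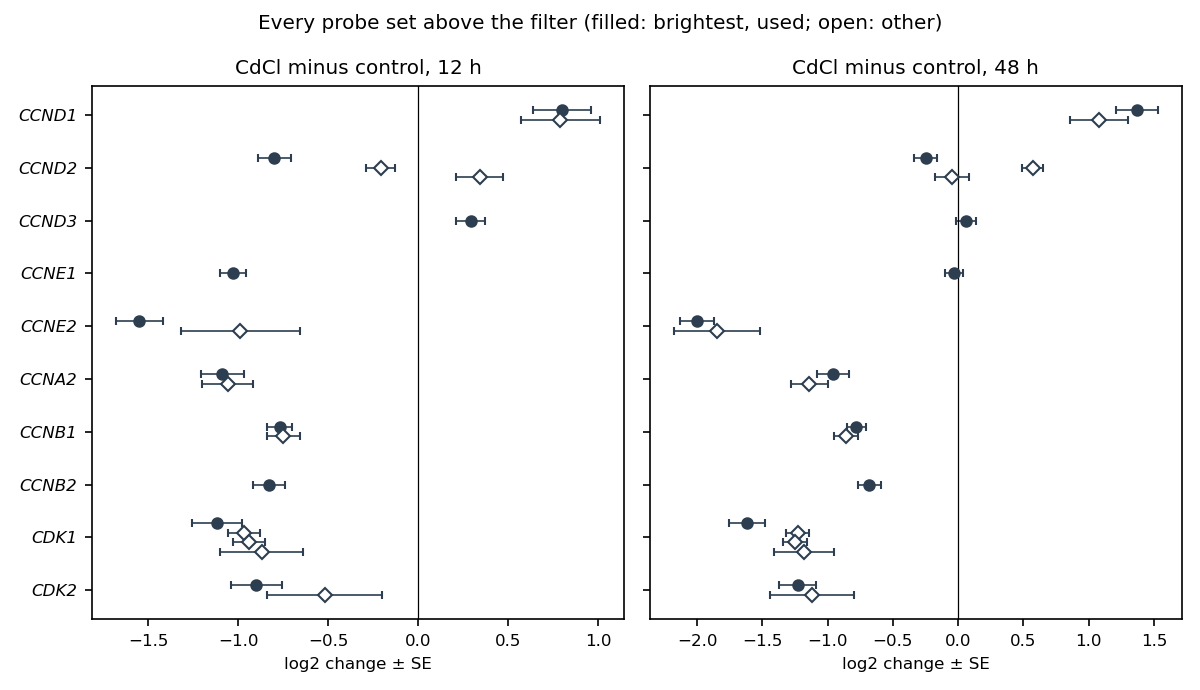
Log2 change ± SE with CdCl at 12 h (left) and 48 h (right) for every probe set of the 10 genes that passed the filter, from a fit over all probe sets with 1 symbol. Filled circles are the brightest probe set of a gene and open diamonds the others. The dimmest probe sets of CCNE2 and CDK1 had CdCl arrays at 48 h all under 4, so their fitted values there give no size. The same holds for the dimmest CCND2 probe set shown, with control arrays at 12 h and CdCl arrays at 48 h all under 4. Apart from CCND2, all probe sets of a gene lie on the same side of zero.

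The 10 genes also differed between the time points. Among all genes tested, 34.7% rose and 27.6% fell in CdCl cells at 48 h against CdCl cells at 12 h, and 23.4% rose and 33.5% fell in control cells at 48 h against control cells at 12 h. Of the 10 genes, 9 fell in CdCl cells over this time, and CCND2 gave 0.18 ± 0.09 (adjusted p = 0.083). In control cells all 10 fell. These comparisons share groups with those above and are given side by side.

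CCNE1 fell by 1.22 ± 0.07 in CdCl cells, and had the largest fall of the 10 in control cells, 4.68-fold (-2.23 ± 0.07, adjusted p = 7.5e-10). CCNE2 fell by 2.42 ± 0.13 in CdCl cells, the largest fall there, and by 1.97 ± 0.13 in control cells. CDK1 fell by 2.32 ± 0.14 in CdCl cells and by 1.82 ± 0.14 in control cells. CDK2 fell by 2.05 ± 0.13 in CdCl cells and by 1.72 ± 0.13 in control cells. For CCNA2, CCNB1 and CCNB2, the changes were -1.96, -1.85 and -1.34 in CdCl cells, and -2.09, -1.84 and -1.49 in control cells. Among the D cyclins, CCND1 fell by 0.94 ± 0.16 in CdCl and by 1.51 ± 0.16 in control cells, and CCND3 fell by 1.26 ± 0.08 in CdCl and by 1.04 ± 0.08 in control cells. CCND2 had the smallest fall of the 10 in control cells, by 0.36 ± 0.09. On the second CCND2 probe set, the change was 0.83 ± 0.08 in CdCl cells (adjusted p = 2.8e-06) and 0.05 ± 0.08 in control cells (adjusted p = 0.58).

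**Figure D4:**
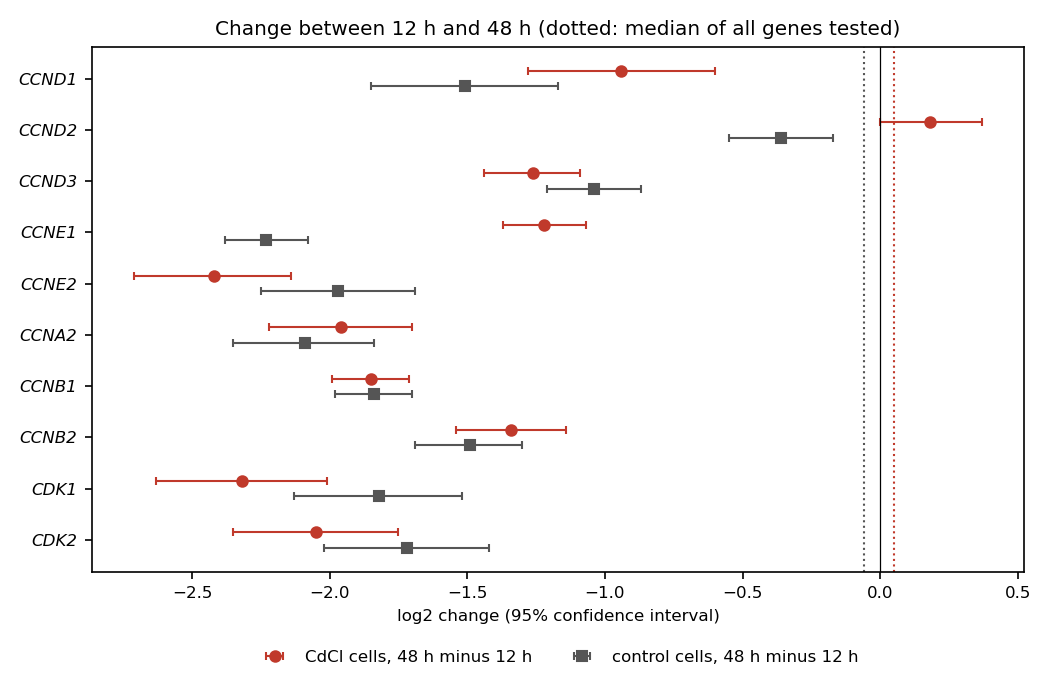
Log2 change from 12 h to 48 h in CdCl cells (circles) and in control cells (squares), with 95% confidence intervals of the limma fit. Dotted lines mark the medians of all genes tested, 0.05 in CdCl and -0.06 in control cells. Intervals lie left of zero for every gene except CCND2 in CdCl cells, and those of CCND2 and CCNE1 do not overlap between CdCl and control cells.

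The 7 genes CCNE1, CCNE2, CCNA2, CCNB1, CCNB2, CDK1 and CDK2 shared 1 order of group means: control at 12 h highest, then CdCl at 12 h, control at 48 h and CdCl at 48 h. Neighbours in this order were apart on all arrays, with the exception of the 48 h groups of CCNE1. How many of all genes tested share this order, or have its neighbours apart, was not counted. Of all genes, 46.6% had all 3 CdCl arrays below all 3 controls at 12 h, and 30.9% at 48 h. The mean in CdCl cells at 12 h exceeded that in control cells at 48 h by 0.42 for CCNE2 to 1.19 for CCNE1. CCND1 and CCND3 had the order CdCl at 12 h, control at 12 h, CdCl at 48 h and control at 48 h, where CCND1 overlapped between the middle groups and CCND3 between the 48 h groups. CCND2 ran from control at 12 h through control at 48 h and CdCl at 48 h to CdCl at 12 h, with all neighbours apart.

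Across the 12 arrays, which share 4 groups, CCNA2, CCNB1, CCNB2, CDK1 and CDK2 correlated with each other at Pearson's r of 0.969 to 0.991, and CCNE2 with these 5 at 0.951 to 0.979. CCNE1 correlated with the same 5 at 0.882 to 0.956. CCND1 correlated with CCND3 at 0.776, with CCND2 at -0.394 and with CCNE2 at 0.137. Among tested genes outside the 10, those most like CCNB1 were the mitotic kinesin KIF2C (0.997), the kinetochore gene ZWINT and MORC4 (0.996 each). CDK1 was most like NUSAP1 (0.997), PBK (0.995) and PCNA, the sliding clamp of replication (0.994), and CDK2 was most like KIF11 (0.996), ASPM and PBK (0.994 each). CCNB2 was most like NUP107 (0.997), CENPM and CDCA3 (0.996 each), and CCNA2 most like KIF4A, MELK (0.995 each) and FGFR4 (0.994). CCNE2 was most like the replicative helicase genes MCM7 (0.997) and MCM3 and the folate enzyme MTHFD1 (0.996 each). CCNE1 was most like RAN, SEMA6A and HSPA2 (0.988 each). The nearest genes to CCND1 were TMEM154 (0.987), the ectonucleotidase NT5E and the chaperone HSP90AA1 (0.983 each). CCND3 was most like SLCO2A1 (0.993), and CCND2 most like NCOA6 (0.971). These are descriptions over 4 group levels, with no test.

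Around the cyclins, 9 lists of 121 genes were read in the same fit, and 107 of these genes were tested. Of all genes tested, 16.7% rose and 39.7% fell at 12 h, and 26.5% rose and 28.0% fell at 48 h. Of 7 tested CDK inhibitors, 3 rose, 2 fell and 2 did not pass at 12 h, and the same numbers held at 48 h. The list medians were 0.37 and 0.53, against -0.16 and -0.015 over all genes. CDKN1A, which encodes p21, rose 2.01-fold at 12 h and 2.11-fold at 48 h. CDKN1C, which encodes p57, rose 1.69-fold and 2.95-fold, and CDKN2B, the inhibitor p15 of CDK4 and CDK6, rose 1.76-fold and 3.14-fold. CDKN1B, which encodes p27 and was added after its values were seen, fell by 0.71 ± 0.15 at 12 h and by 0.82 ± 0.15 at 48 h. Of the D cyclin partners and RB family, 1 rose and 3 of 5 fell at 12 h (median -0.27), and 2 rose and 3 fell at 48 h (median -0.33), against 39.7% and 28.0% of all genes that fell. The kinase CDK6 rose by 0.45 ± 0.10 and 0.63 ± 0.10. CDK4 fell by 0.27 ± 0.06 at 12 h (adjusted p = 0.0017), where the median of all genes was -0.16, and rose by 0.36 ± 0.06 at 48 h. Its difference between times was 0.62 ± 0.08 (adjusted p = 0.00015). The RB relative RBL1 fell by 0.65 ± 0.14 and 0.89 ± 0.14, and RBL2 by 0.62 ± 0.09 and 0.33 ± 0.09.

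Of 9 tested E2F and DP factors, 6 fell and 1 rose at 12 h (median -0.85), and 3 fell and 1 rose at 48 h (median -0.20). Among all genes tested, 39.7% fell and 16.7% rose at 12 h, and 28.0% fell and 26.5% rose at 48 h. The activators E2F1 and E2F2 fell by 1.10 ± 0.14 and 1.35 ± 0.10 at 12 h. The atypical repressor E2F8 was 5.10-fold lower at 12 h and at least 1.78-fold lower at 48 h, where all 3 CdCl arrays were under 4 and were set to 4. Its relative E2F7 rose by 0.93 ± 0.17 at 12 h and by 1.64 ± 0.17 at 48 h. The E2F partner TFDP1 fell by 0.97 ± 0.06 at 12 h and by 1.02 ± 0.06 at 48 h. Of 9 tested genes of mitotic cyclin transcription, 5 fell and 1 rose at 12 h (median -0.33), and 6 fell and 2 rose at 48 h (median -0.45). FOXM1, a transcription factor of G2 genes, fell by 1.47 ± 0.10 and 1.13 ± 0.10, and the MuvB subunit LIN9 by 0.92 ± 0.08 and 0.75 ± 0.08. MYBL2 fell by 0.78 ± 0.16 at 12 h and by 0.45 ± 0.16 at 48 h, and another MuvB subunit, LIN37, rose by 0.87 ± 0.12 at 48 h.

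Of 13 genes that set CDK phosphorylation, 9 fell and 1 rose at 12 h (median -0.77), and 7 fell and 2 rose at 48 h (median -0.64). CDC25C, a phosphatase that activates CDK1, fell by 1.42 ± 0.13 and 1.09 ± 0.13. Its relative CDC25A fell by 1.21 ± 0.35 at 12 h. CDC25B, another relative, fell by 0.96 ± 0.12 at 12 h and by 0.93 ± 0.12 at 48 h. WEE1, the kinase that inhibits CDK1, fell by 0.78 ± 0.10 at 12 h and by 1.14 ± 0.10 at 48 h. The mitotic kinase AURKA fell by 1.02 ± 0.07 at 12 h and by 0.64 ± 0.07 at 48 h. Members with opposite actions on CDK1 were thus lower together. Of 26 genes of cyclin ubiquitination, 15 fell and 3 rose at 12 h (median -0.40), and 12 fell and 3 rose at 48 h (median -0.28). For both lists the shares of all genes were 39.7% lower and 16.7% higher at 12 h, and 28.0% and 26.5% at 48 h. SKP2, which marks the inhibitor p27 for degradation, fell by 1.5 ± 0.09 and 1.29 ± 0.09. FBXO5, an inhibitor of the anaphase-promoting complex, fell by 1.44 ± 0.07 at 12 h and by 0.59 ± 0.07 at 48 h. CCNF, an F-box cyclin, fell by 1.32 ± 0.16 at 12 h and by 0.59 ± 0.16 at 48 h. FBXO4 fell by 1.26 ± 0.10 at 12 h and by 1.04 ± 0.10 at 48 h. The ubiquitin-conjugating enzyme UBE2S rose by 0.45 ± 0.09 at 12 h and by 1.17 ± 0.09 at 48 h.

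Of 11 tested cyclins and kinases of transcription, 0 rose and 3 fell at 12 h (median -0.14), and 3 rose and 2 fell at 48 h (median -0.13). Beside these, 16.7% of all genes rose and 39.7% fell at 12 h, and 26.5% rose and 28.0% fell at 48 h. In this list no change of a member named by the rule exceeded 0.51 in size (CCNL2 at 12 h). CCNK and CDK9, subunits of kinases that act on RNA polymerase, rose by 0.41 ± 0.07 and 0.35 ± 0.12 at 48 h. The Mediator kinases CDK8 and CDK19 fell by 0.30 ± 0.07 and 0.37 ± 0.09 at 12 h, and CDK8 by 0.31 ± 0.07 at 48 h. Of 17 tested other cyclins and CDK-related kinases, 4 rose and 7 fell at 12 h (median -0.21), and 4 rose and 5 fell at 48 h (median -0.09), shares near those of all genes, of which 39.7% fell at 12 h and 28.0% at 48 h. CCNA1, the paralogue of CCNA2 best known from male germ cells, rose 3.32-fold at 12 h, with 8.23 ± 0.23 in CdCl and 6.50 ± 0.12 in control cells. At 48 h it rose 3.38-fold, with 5.64 ± 0.40 in CdCl and 3.88 ± 0.50 in control cells (SD, n = 3). That control mean lay under the filter value of 4, so the size of the 48 h fold is uncertain. CCNA1 and CCNA2 thus changed in opposite directions at both times. CDK17 rose by 0.79 ± 0.08 at 12 h and CDK20 by 1.16 ± 0.13 at 48 h. CCNG2, a cyclin linked to growth arrest, fell by 0.53 ± 0.09 at 12 h and by 0.94 ± 0.09 at 48 h. CCNO was at least 1.69-fold lower at 12 h and at least 1.71-fold lower at 48 h, with its CdCl arrays under 4.

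Of 10 tested genes of growth signalling upstream of the D cyclins, 2 rose and 2 fell at 12 h (median 0.08), and 3 rose and 4 fell at 48 h (median -0.13). Over all genes tested, 16.7% rose and 39.7% fell at 12 h, and 26.5% rose and 28.0% fell at 48 h. JUN, an AP-1 factor gene, rose by 1.91 ± 0.14 at 12 h and by 1.42 ± 0.14 at 48 h. FOSL1, its partner FRA1, rose 4.25-fold at 12 h and was at least 3.87-fold higher at 48 h, where the 3 control arrays were under 4. STAT3 fell by 0.35 ± 0.11 at 12 h and by 0.42 ± 0.11 at 48 h. TCF7L2, a factor of the WNT pathway, fell by 0.29 ± 0.07 at 12 h and by 0.73 ± 0.07 at 48 h.

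**Figure D5:**
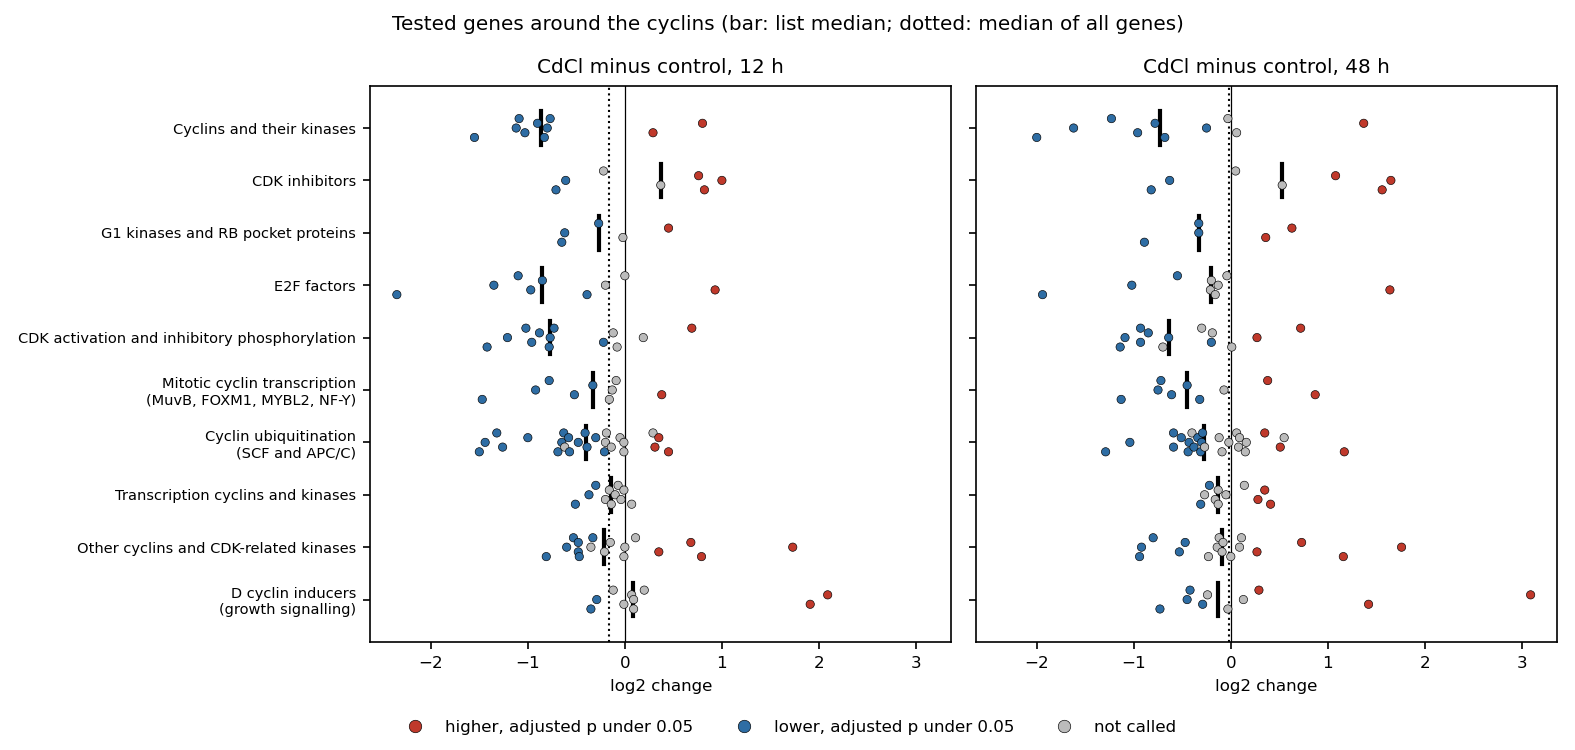
Log2 change with CdCl at 12 h (left) and 48 h (right) for every tested gene of the 10 cyclins and kinases and of the 9 lists around them. Red points rose, blue points fell and grey points did not pass (limma, adjusted p under 0.05), short bars are list medians and dotted lines the median of all genes tested. The cyclins and kinases, the E2F factors and the genes that set CDK phosphorylation have medians of -0.86, -0.85 and -0.77 at 12 h, and the CDK inhibitors 0.37.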

How the data were processed

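The authors deposited log2 signals for 54675 probe sets on 12 arrays, made with GCRMA per the submitters' processing notes (version not given in the sources used here). This method corrects background by probe sequence, normalises between arrays and summarises probes, so it can hide a change shared by most genes. The deposited log2 values were used as they are. No detection calls were used, and with 3 arrays a group the number of arrays sets the precision.

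Symbols came from the platform annotation: 41091 probe sets carried 1 symbol and 1801 several. The 62 Affymetrix control probe sets were left out. Each gene was read from its brightest probe set over the 12 arrays. One limma fit (limma 3.58.1, R 4.3.3) of 4 group means gave 5 two-sided comparisons, adjusted by Benjamini-Hochberg over all genes tested. It was tested on simulated data. A group with all 3 arrays under 4 was set to 4 for a fold, written "at least". Same-numbered replicates did not deviate together, so no pairing was used. Named genes are the 10 members, up to 3 called genes with the largest change per list and time, and the 3 most correlated genes per member, of which the nearest 1 is given for CCND2 and CCND3. The members, lists and rules were chosen with earlier results of these data known.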

Additional observations from a re-analysis of the deposited data

Results flagged for a closer look

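The CdCl change differed between times, by a test of that difference, in 2 of the 10 genes. Among all genes tested, 27.0% passed this test upward (48 h above 12 h) and 13.0% downward (2888 and 1394), and after centring on the tested genes 1907 passed upward and 1989 downward. CCNE1 was lower with CdCl at 12 h and level with control at 48 h, a difference between times of 1.01 (adjusted p = 2.8e-05). CCNE1 signal at 48 h lay between 5.72 and 5.79 on all 3 CdCl arrays and between 5.74 and 5.79 on all 3 control arrays. Whether this is the lowest signal that probe set can give was not tested. CCND2 fell less at 48 h than at 12 h on its brightest probe set, with a difference of 0.55 (adjusted p = 0.0045). The second CCND2 probe set gave 0.78 for the same difference and the third -0.40 (adjusted p = 0.13). The third lay near the filter, with control arrays at 12 h and CdCl arrays at 48 h all under 4.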

How the results depend on the processing

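Planned settings were other normalizations and filters, averaged probe sets, a trended robust prior, only the compared groups, a replicate block and leaving out each array. Added later were centring on the tested genes and reading other probe sets. Over the planned settings, 973 of 990 single gene changes kept their direction and side of the threshold. Of these checks, 600 left out 1 array, and 592 of the 600 kept both. Leaving out an array outside the compared groups could move only the adjusted p and not the change itself. The other planned settings kept both in 381 of 390. Genes lower for the difference between times, 0 as reported, numbered 1 with the robust prior, 1 with averaged probe sets, 1 with the replicate block and 2 after centring on the tested genes, and 0 to 2 when 1 array was left out. Genes higher for CdCl at 48 h against 12 h numbered 1 with averaged probe sets, in place of 0. After centring on the tested genes, 2830 of all genes fell at 12 h and 1907 passed upward for the difference between times, in place of 4246 and 2888. Averaging takes in probe sets under the filter. With it the CCNB1 to CCNB2 ratio differed between CdCl and control cells by -0.45 at 12 h and -0.56 at 48 h. The values were 1.00 and 1.08 for CCND1 to CCND2, and -0.35 and 0.10 for CCND2 to CCND3. At 12 h they were -0.75 for CCNE2 to CCNE1 and -0.50 for CDK1 to CDK2. CCND2 reversed at 48 h with averaged probe sets (0.14) and on its second probe set (0.57), and for 48 h against 12 h in control cells on the second (0.05) and on the third (0.24). The third, near the filter at 3.87 over the 12 arrays, also reversed CCND2 at 12 h (0.34) and for the difference between times (-0.40, adjusted p = 0.13). Its control arrays at 12 h and its CdCl arrays at 48 h were all under 4, so its values give no size. The cause of these reversals was not tested. With the replicate block, 8 genes fell at 12 h and 7 at 48 h, as without it. When 1 array was left out, 6 to 7 fell at 48 h. The 48 h fall of CCND2 did not pass after centring on the tested genes (adjusted p = 0.055). Same-numbered CdCl and control arrays deviated with correlations of -0.34 to 0.00.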
